A study of Mus musculus with 6 samples.

Results

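Potassium channel genes were compared between ribosome-bound RNA of Lhx5-TRAP neurons and input RNA of mouse midbrain. The genes were all those in the count tables whose symbol is Kcn, 1 or more letters and a number, which gave 92 of 32531 genes. They fell into 40 voltage-gated pore subunits, 15 inward rectifiers (Kcnj), 14 two-pore channels (Kcnk), 9 calcium-activated channels and their beta subunits (Kcnma, Kcnmb, Kcnn), 2 sodium-activated channels (Kcnt), 11 other auxiliary subunits (Kcnab, Kcne, Kcnip) and Kcnu1, a pH-gated channel of sperm.

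The mice were adult, untreated controls of line DT154, which carries a transgene for the ribosomal protein Rpl10a fused to EGFP driven by control elements of Lhx5, which encodes a LIM homeobox factor. Translating ribosome affinity purification (TRAP) with antibodies against EGFP gave 3 immunopurified libraries (IP), set against 3 libraries titled input. Another label calls these unbound, so they may be whole homogenate or what the beads left behind, and they may still hold RNA of the tagged cells. Sex, and whether replicates were separate animals, are not stated, so p-values measure the spread between these libraries, which may be technical. The tag marks whichever midbrain cells use the Lhx5 elements in this line. Levels are as CPM, the count out of every 1000000 counts of a library's scaled total. Lhx5 itself, which checks the pull-down, had 46.8, 56.0 and 49.1 CPM in IP, against 3.92, 3.8 and 2.20 CPM in input.

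Potassium channels let potassium leave the cell and so set the resting potential, repolarize action potentials and limit repetitive firing. Voltage-gated channels open on depolarization, calcium- and sodium-activated channels respond to the ions that enter during firing, and inward rectifiers and two-pore channels carry current near rest. In the brain some of these genes are expressed mainly by neurons, while Kcnj10 and Kcnj16 form the main inward rectifier of astrocytes.

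Libraries held 38058239 to 45841499 gene counts. One library in each group stood apart by marker genes. IP replicate 2 had a summed level of 1007 CPM over 4 Purkinje cell markers, against 126 and 95.8 CPM in the other IP libraries, while the input libraries had 90.3, 130 and 149 CPM. Input replicate 3 had 1222 CPM over 7 striatal markers and 1350 CPM over 5 choroid plexus markers, against 260 and 135 CPM and 363 and 15.8 CPM in the other input libraries. It had 3.18 CPM over the midbrain markers En1, En2, Pax7 and Gata3, where input replicates 1 and 2 had 36.1 and 34.0 CPM and IP had 16.7 to 24.4 CPM. By these markers input replicate 3 did not look like midbrain RNA of the other input libraries. Whether it came from the same region was not tested. Of 8 pan-neuronal markers 7 were higher in IP, with summed levels of 19507 to 24682 CPM in IP and 8989 to 12650 CPM in input. All 8 oligodendrocyte, 4 oligodendrocyte precursor, 6 microglial, 6 endothelial and 5 mural markers were lower in IP, as were 7 of 8 astrocyte markers. In bulk libraries fewer cells of a type and less RNA per cell cannot be told apart.

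Of the 92 genes 76 had enough counts to test, of which 21 were higher in IP, 21 were lower and 34 did not pass (edgeR's quasi-likelihood test, Benjamini-Hochberg adjusted p under 0.05 over all 17197 genes tested). The shares of 27.6% higher and 27.6% lower lie close to the background, since 26.0% of all genes tested were higher and 27.9% lower (53.9% in either direction), and the median log2 fold change of IP over input was -0.06 against -0.01 for all genes. As a family, potassium channel genes were therefore called about as often as other genes. Differences between single potassium channel genes were large, from -4.53 for Kcnj13 to 1.91 for Kcng4. All 42 called genes kept their sign in a fit without IP replicate 2 and input replicate 3, where 34 were called the same way. The kept signs say little, since the IP and input libraries did not overlap for any called gene but Kcnh5. More than 2-fold, 3 genes were higher (Kcng4, Kcns3 and Kcnk3, 3.95% of those tested, background 2.25%) and 10 were lower (13.2%, background 12.9%). Without IP replicate 1 or without input replicate 3 the count past 2-fold higher was 1. All 3 IP libraries lay above all 3 input libraries for 24 genes (31.6%, background 30.7%) and below them for 21 (27.6%, background 32.8%). The plot of fold changes by subfamily shows this range for each group.

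**Figure D1:**
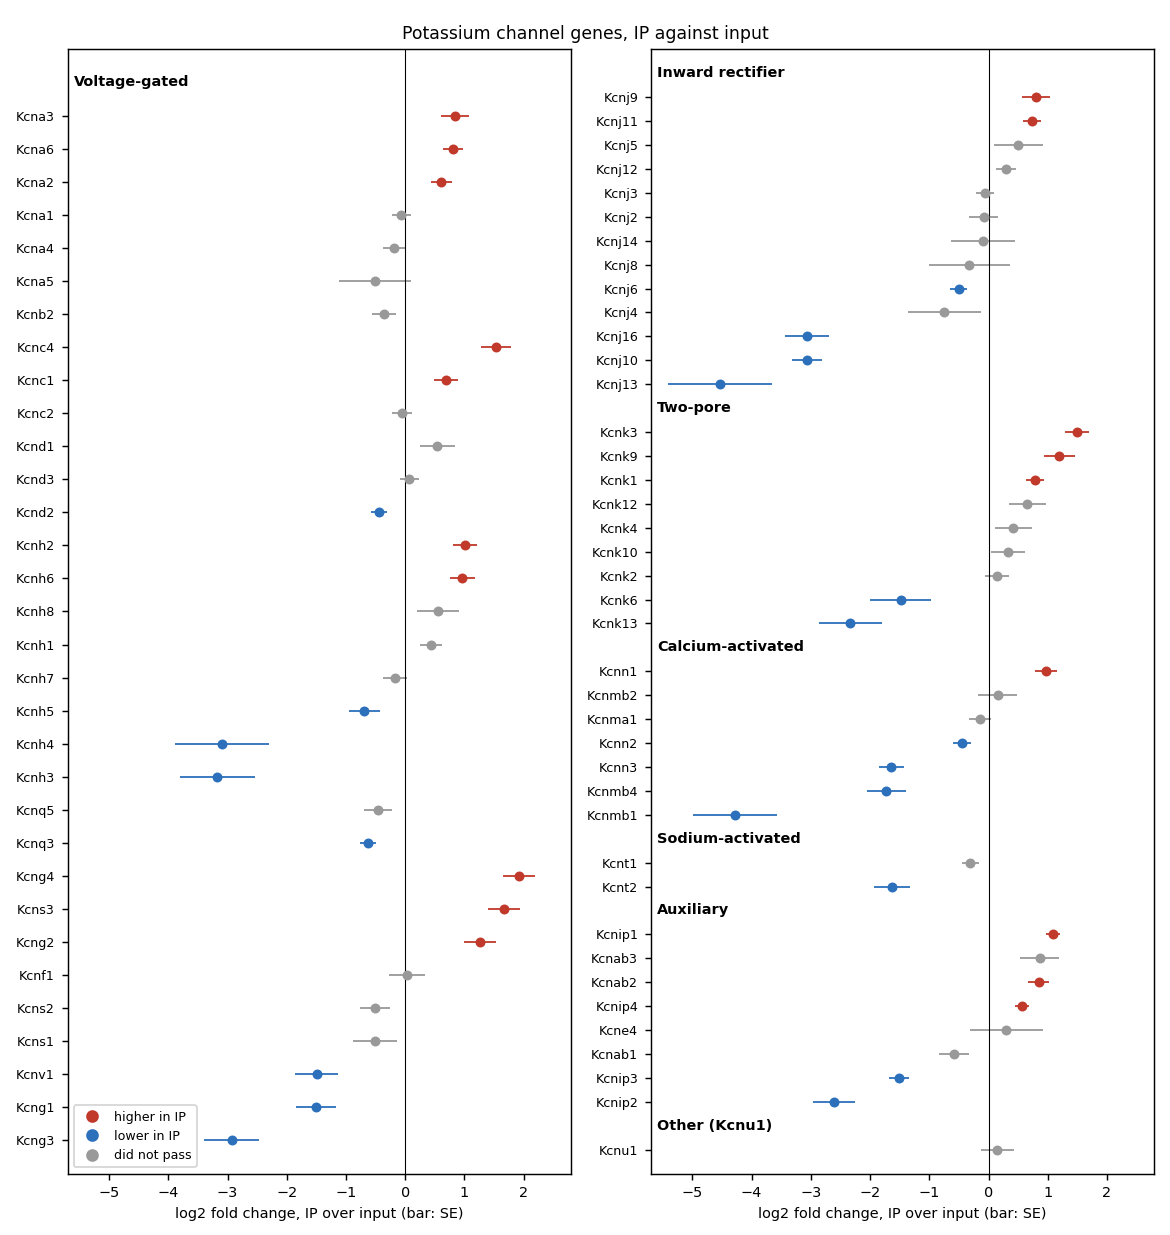
Log2 fold change of IP over input for tested potassium channel genes described here, grouped by subfamily, with bars of 1 standard error and marks for genes higher, lower or not passing at an adjusted p of 0.05. Genes on both sides of 0 appear in the voltage-gated, inward rectifier, two-pore, calcium-activated and auxiliary groups, with Kcng4 highest at 1.91 and Kcnj13 lowest at -4.53.

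Among tested genes, 6 reached 10 counts in all input libraries but not in all IP libraries (among them Kcnh3, Kcnh4, Kcnj8, Kcnj13 and Kcnmb1), and none the other way round. Such genes entered the tests through their input counts. Kcnh3, Kcnj13 and Kcnmb1 are among the 10 genes lower past 2-fold, and Kcnh4 is among the 21 lower. The counts of lower genes rest in part on this, and the shares without these genes were not computed. The other 16 genes had too few counts to test. Kcnj15 and Kcnk16 had 0 counts in all 6 libraries, which allows up to 0.0687 to 0.0740 CPM per library (3 counts, counting error only). Kcne2, a subunit typical of choroid plexus, had 0.0239, 0.0488 and 0.233 CPM in IP, against 1.59, 0.0917 and 4.17 CPM in input, in the order of the choroid plexus sums of the input libraries. The part of choroid plexus RNA in the Kcne2 values was not tested. The remaining 13 had at most 1.01 CPM in every library (Kcna7, Kcna10, Kcne1, Kcne3, Kcnj1, Kcnk5, Kcnk7, Kcnk15, Kcnk18, Kcnmb3, Kcnn4, Kcnq1 and Kcnv2).

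To compare levels between genes, CPM values were divided by the length of each gene's merged exons (CPM per kb). Among the 92 genes Kcna1 had the highest mean level in both groups, with 59.1 ± 3.6 CPM per kb in IP libraries and 62.0 ± 13.1 in input libraries (SD, n = 3 each). Kcna2 came next at 55.8 ± 5.17 CPM per kb in IP and 36.7 ± 8.58 in input. In IP its spread overlapped that of Kcna1 and of the two-pore channel gene Kcnk1 at 53.4 ± 7.86. It also overlapped the beta subunit genes Kcnab2 and Kcnab3 at 52.3 ± 9.25 and 50.6 ± 4.31, and the auxiliary gene Kcnip4 at 50.4 ± 4.69. Kcnc4 ranked 9th in IP and 19th in input, Kcng4 14th and 33rd, and Kcnk3 17th and 34th. Kcnj10 was 33rd in IP, at 4.01 ± 0.650 CPM per kb, and 4th in input, at 33.6 ± 11.4.

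Voltage-gated pore subunits made up 71.8% ± 1.86 of the summed level per length of the pore-forming genes in IP and 64.7% ± 1.41 in input. Two-pore channels made up 14.7% ± 0.701 in IP and 10.6% ± 0.374 in input, and inward rectifiers 10.1% ± 1.36 in IP and 19.3% ± 1.09 in input, with no overlap between the groups in any of the 3. Kcnj10 and Kcnj16 alone made up 0.856% ± 0.0913 of the sum in IP and 8.39% ± 1.92 in input. With those 2 genes left out, voltage-gated subunits stood at 72.4% ± 1.90 in IP and 70.6% ± 2.49 in input, with overlapping libraries, and inward rectifiers at 9.33% ± 1.43 and 11.9% ± 1.58, overlapping too. The two-pore share stayed apart, at 14.8% ± 0.718 in IP and 11.6% ± 0.201 in input. Kcnk1 alone held on average 53.4 of the 81.2 CPM per kb of the two-pore sum in IP and 30.9 of 49.0 in input. The two-pore share was not computed without Kcnk1. The shares are a description with no test, and each depends on the others because they sum to the whole.

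**Figure D2:**
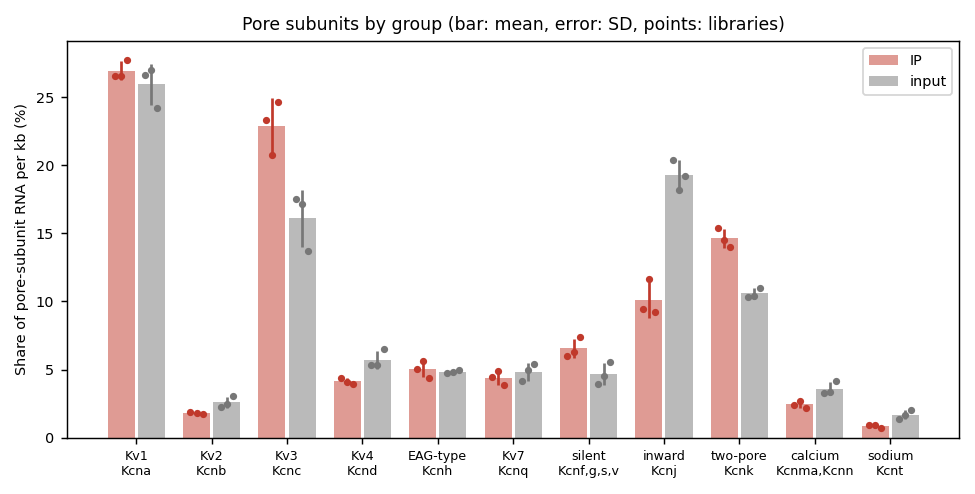
Share of the summed level (CPM per kb of merged exons) of pore-forming potassium channel genes held by each subfamily, in percent, with the voltage-gated genes split by family and Kcnu1 not drawn, where bars and error bars are the mean and SD and points the 3 libraries of IP (left of each pair) and input (right). Inward rectifiers take 9.21% to 11.7% in IP and 18.2% to 20.4% in input, and two-pore channels 14.0% to 15.4% in IP and 10.3% to 11.0% in input.

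Among voltage-gated genes 12 of 36 tested were higher in IP and 8 were lower, with a median log2 fold change of -0.06. Without IP replicate 1 the count higher was 7. Over all genes tested 26.0% were higher and 27.9% lower, the background for this and the later subfamily counts. No subfamily was tested against that background. The largest rises lay among the silent subunits, which form no channel on their own and alter the Kv2 channels they join. Kcng4 had 65.9, 55.7 and 83.5 CPM in IP, against 23.0, 20.3 and 11.1 CPM in input. The groups did not overlap, with the lowest IP library above 2 times the highest input library, and the log2 fold change was 1.91 ± 0.27 (SE, adjusted p = 0.00064 by edgeR, 0.0106 for a change past 2-fold). Kcns3 had 25.3, 16.8 and 27.0 CPM in IP, against 9.18, 7.81 and 4.74 CPM in input, again without overlap (1.67 ± 0.28, adjusted p = 0.00131, where values in this form are the log2 fold change of IP over input ± SE and edgeR's adjusted p). Kcng2 had 7.36, 10.5 and 6.67 CPM in IP, against 3.32, 4.24 and 2.64 CPM in input (1.27 ± 0.27, adjusted p = 0.00427). The silent subunits Kcng3, Kcng1 and Kcnv1 were lower in IP. Kcng3 fell furthest (-2.93 ± 0.46, adjusted p = 0.00105), with 0.549, 1.42 and 0.700 CPM in IP, against 4.25, 5.96 and 10.1 CPM in input, followed by Kcng1 and Kcnv1 at -1.50 each. Kcnf1, Kcns1 and Kcns2 had log2 fold changes of 0.04, -0.51 and -0.50 and did not pass. Kcnb2, a Kv2 gene for a delayed rectifier of the cell body, had 17.6, 12.5 and 10.5 CPM in IP and 17.1, 19.0 and 15.8 CPM in input (-0.36, adjusted p = 0.171), and passed without IP replicate 1 (-0.58, adjusted p = 0.0312).

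Kcng4 and Kcnj10 had the largest rise among potassium channel genes and the smallest adjusted p among those that fell, and their promoters are shown for that reason. Each window runs from 250 bases before to 50 after the gene start (RefSeq sequence, GRCm38.p6), printed 5′ to 3′ on the gene's strand, with matches to the GC box GGGCGG, on either strand, in capitals. Kcng4 lies on the minus strand, with its window at chr8:119635631-119635930, and Kcnj10 on the plus strand, with its window at chr1:172340960-172341259. In the GENCODE annotation the genes span chr8:119623854-119635680 and chr1:172341210-172374085, and neither shares exon bases with another gene.
Kcng4: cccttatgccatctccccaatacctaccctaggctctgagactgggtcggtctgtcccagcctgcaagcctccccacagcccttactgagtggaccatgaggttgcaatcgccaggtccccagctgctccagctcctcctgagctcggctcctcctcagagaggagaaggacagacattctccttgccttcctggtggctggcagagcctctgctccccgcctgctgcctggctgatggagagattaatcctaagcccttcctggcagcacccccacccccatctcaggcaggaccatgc
Kcnj10: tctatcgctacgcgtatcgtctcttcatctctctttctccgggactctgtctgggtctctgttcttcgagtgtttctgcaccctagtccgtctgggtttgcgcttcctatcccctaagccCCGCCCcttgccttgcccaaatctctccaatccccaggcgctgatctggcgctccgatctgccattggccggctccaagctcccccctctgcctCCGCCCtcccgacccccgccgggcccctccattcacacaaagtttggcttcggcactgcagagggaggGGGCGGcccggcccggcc
The Kcng4 window had 4 CpG dinucleotides and 61.3% G and C, and the Kcnj10 window 21 CpG and 63.7%, where the median of 32851 mouse windows was 7 CpG and 52.7%. The GC box matched 0 times in Kcng4 and 3 times in Kcnj10 (35.7% of all windows hold at least 1 match). The TATA box TATAAA matched neither (13.6% of all windows), and the E-box CANNTG matched once in Kcng4 and not in Kcnj10 (72.3% of all windows). A match is a description of the letters in these windows.

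The Kv3 genes (Kcnc) encode fast delayed rectifiers known for supporting high firing rates. Kcnc4 had 116, 91.8 and 125 CPM in IP, against 41.8, 48.9 and 23.8 CPM in input, and the groups did not overlap (1.54 ± 0.25, adjusted p = 0.00123). Kcnc1 had 351, 305 and 294 CPM in IP, against 235, 221 and 134 CPM in input (0.69 ± 0.20, adjusted p = 0.0193), and 0.45 without input replicate 3. Leaving out IP replicate 1 or 2 ended the call of Kcnc1 (adjusted p = 0.0603 and 0.0657). Kcnc2 did not pass (-0.05, adjusted p = 0.793), with 211, 142 and 175 CPM in IP and 209, 166 and 174 CPM in input. The groups overlapped for Kcnc2 and did not for Kcnc1.

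The Kv1 genes (Kcna) encode low-threshold channels of axons. Kcna6, Kcna3 and Kcna2 were higher in IP, at 0.81 ± 0.17 (adjusted p = 0.00437), 0.85 ± 0.23 (adjusted p = 0.0149) and 0.61 ± 0.18 (adjusted p = 0.0181). Kcna2, the Kv1 gene with the most counts, had 725, 668 and 602 CPM in IP, against 514, 476 and 321 CPM in input, with no overlap. Kcna1, which assembles with Kcna2, had 301, 266 and 281 CPM in IP and 331, 334 and 224 CPM in input, and the groups overlapped (-0.07, adjusted p = 0.743). Kcna4 and Kcna5 did not pass either, at -0.19 and -0.51. Kcna5 was at 0.56 without input replicate 3, which had 4.34 CPM where the other input libraries had 1.20 and 0.779 CPM. The Kcna3 call was lost without IP replicate 1 (adjusted p = 0.055) or input replicate 3 (0.0524), and the Kcna2 call without IP replicate 1 (0.0585) or IP replicate 2 (0.0741), while the log2 fold change of Kcna2 was 0.40 without input replicate 3. Of Kcna6's merged exons 39.6% overlap another gene, and reads from both cannot be told apart there.

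Of the 3 Kv4 genes (Kcnd), which encode the A-type current of dendrites, Kcnd2 was lower in IP, with 66.3, 53.9 and 50.7 CPM in IP, against 76.1, 70.3 and 86.2 CPM in input (-0.44 ± 0.14, adjusted p = 0.0249). Its call was lost without IP replicate 2 (adjusted p = 0.066), IP replicate 3 (0.0674), input replicate 1 (0.0597) or input replicate 3 (0.066). Kcnd3 had 124, 101 and 95.7 CPM in IP and 114, 111 and 79.9 CPM in input (0.07, adjusted p = 0.740), and Kcnd1 stood at 0.54 (adjusted p = 0.153).

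The Kcnh genes encode the ether-a-go-go channels, and their members moved both ways. Kcnh2, the Erg channel also known from the heart, had 78.5, 74.1 and 59.4 CPM in IP, against 43.3, 36.7 and 25 CPM in input (1.01 ± 0.20, adjusted p = 0.00334), and its relative Kcnh6 had 6.04, 5.93 and 7.06 CPM in IP, against 3.72, 3.09 and 2.94 CPM in input (0.96 ± 0.22, adjusted p = 0.00551). Neither pair of groups overlapped. The Elk genes Kcnh3 and Kcnh4 were lower in IP. Kcnh3 had 0.836, 1.24 and 0.117 CPM in IP, against 5.41, 5.48 and 8.91 CPM in input (-3.17 ± 0.64, adjusted p = 0.00336; -3.80 without IP replicate 2). Kcnh4 had 0.645, 0.220 and 0.163 CPM in IP, against 1.13, 1.6 and 6.07 CPM in input (-3.09 ± 0.79, adjusted p = 0.0106). Input replicate 3, the library with the most striatal and choroid plexus marker RNA, was several times above the other input libraries. The part of RNA from either source in the Kcnh4 values was not tested. The log2 fold change of Kcnh4 was -2.01 (adjusted p = 0.0464) without input replicate 3, -3.90 without IP replicate 1, and -1.79 (adjusted p = 0.0973) without both IP replicate 2 and input replicate 3. Kcnh5, an ether-a-go-go gene, had 16.9, 17.1 and 11.2 CPM in IP and 29.7, 27.0 and 16.1 CPM in input, which overlap (-0.69 ± 0.26, adjusted p = 0.049). The Kcnh5 call was lost when any 1 library but input replicate 3 was left out, with adjusted p-values of 0.0714, 0.0791 and 0.139 without IP replicates 1, 2 and 3, and 0.170 and 0.140 without input replicates 1 and 2. Kcnh1, Kcnh7 and Kcnh8 did not pass, and Kcnh1, at 0.43, passed without IP replicate 3 (0.61, adjusted p = 0.0108).

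Among the Kv7 genes (Kcnq), whose channels carry the M-current that muscarinic receptors close, Kcnq3 was lower in IP. Kcnq3 had 34.9, 31.8 and 26.6 CPM in IP, against 47.4, 45.5 and 51.1 CPM in input (-0.63 ± 0.13, adjusted p = 0.00437). The groups did not overlap. Kcnq5 stood at -0.46 (adjusted p = 0.135) and was called lower without IP replicate 2 (-0.77, adjusted p = 0.0279).

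**Figure D3:**
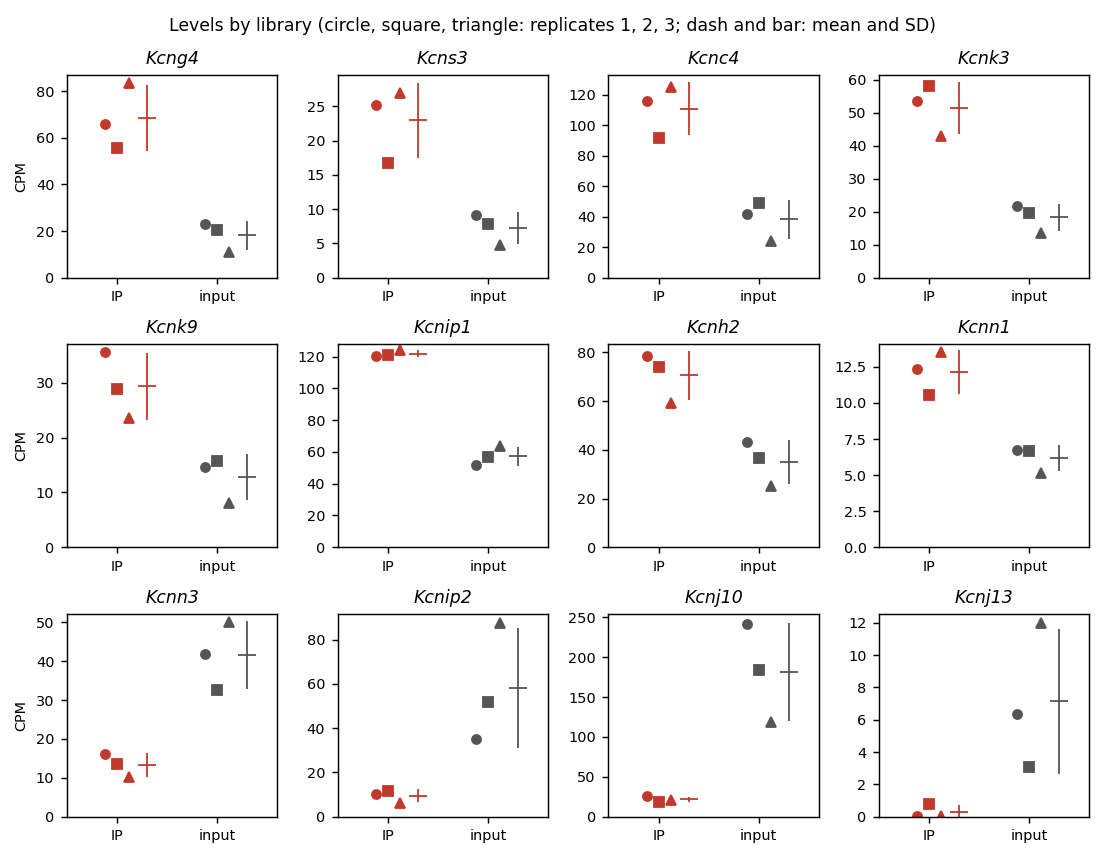
Level in CPM (linear axis from 0, with its own scale in each panel) of 12 potassium channel genes in each of the 3 IP libraries (left) and 3 input libraries (right) of each panel, with the mean and SD beside them. For Kcng4 the IP libraries lie at 55.7 to 83.5 CPM and the input libraries at 11.1 to 23.0 CPM, and for Kcnj10 at 18.9 to 25.6 CPM in IP and 118 to 242 CPM in input.

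Of 13 inward rectifier genes tested 2 were higher in IP, 4 were lower and 7 did not pass (median log2 fold change -0.10). In each of the fits lacking IP replicate 1, lacking IP replicate 2 and lacking input replicate 3, 1 was higher. The pair typical of astrocytes fell. Kcnj10, which clears potassium into astrocytes, had 25.6, 18.9 and 20.6 CPM in IP, against 242, 184 and 118 CPM in input (-3.06 ± 0.26, adjusted p = 6.17e-05). Kcnj16, which joins it in mixed channels, had 4.11, 2.56 and 2.05 CPM in IP, against 31.9, 27.2 and 13.7 CPM in input (-3.06 ± 0.37, adjusted p = 0.000309). In input both were lowest in replicate 3 and in IP both were highest in replicate 1. The summed level of 8 astrocyte markers was 749, 774 and 745 CPM in IP and 2030, 1969 and 1467 CPM in input, of which Aldoc, which did not pass and averaged 605 CPM in IP and 532 CPM in input, made up the larger part in IP. None of the 8 was at 0 in all IP libraries. A fall of this size was not particular to astrocyte markers. The median log2 fold change was -3.24 for them, -3.50 for oligodendrocyte markers and -3.09 for oligodendrocyte precursor markers. The part of RNA from any of these cell types in the Kcnj10 and Kcnj16 values was not tested.

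Kcnj13 encodes a channel of epithelia such as choroid plexus and retinal pigment epithelium. It had 3, 32 and 3 counts in IP, against 265, 135 and 485 counts in input, or 0.0717, 0.781 and 0.0700 CPM in IP, against 6.37, 3.09 and 12 CPM in input (-4.53 ± 0.88, adjusted p = 0.00284). IP replicate 2 was the highest IP library and input replicate 3, which had the most choroid plexus marker RNA, the highest input library. The log2 fold change was -6.62 without IP replicate 2, -3.94 without input replicate 3 and -6.05 without both. Of its merged exons 49.1% overlap Gigyf2 on the opposite strand, so its reads cannot be fully assigned, and the part of choroid plexus RNA was not tested.

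Kcnj3, Kcnj5, Kcnj6 and Kcnj9 encode the G protein-gated GIRK channels that inhibitory transmitters open. Kcnj9 had 53.6, 53.6 and 29.8 CPM in IP, against 29.0, 28.7 and 20.8 CPM in input (0.80 ± 0.24, adjusted p = 0.0205), with IP replicate 3 just above the input libraries. Kcnj6, the GIRK subunit of dopamine neurons, had 19.1, 18.1 and 15.9 CPM in IP, against 27.4, 26.0 and 22.0 CPM in input (-0.51 ± 0.14, adjusted p = 0.0163), and the summed level of 6 dopamine neuron markers was 72.9 to 91.5 CPM in IP and 182 to 466 CPM in input, all 6 being lower in IP. The part of dopamine neuron RNA was not tested. The Kcnj9 call was lost in fits lacking IP replicate 1 (adjusted p = 0.0661), lacking IP replicate 2 (0.107) and lacking input replicate 3 (0.0836), and the Kcnj6 call without input replicate 1 (0.0697) or 2 (0.0619). Kcnj3 had the most RNA of the GIRK genes per length, with 75.4, 77.6 and 65.7 CPM in IP and 85, 83.7 and 59.4 CPM in input (-0.06, adjusted p = 0.765), and Kcnj5 stood at 0.50 (adjusted p = 0.328; 0.90 and adjusted p = 0.00875 without IP replicate 3). Kcnj11, the pore of neuronal ATP-sensitive channels, was higher in IP, with 20.6, 17.7 and 21.8 CPM in IP, against 12.4, 13.3 and 10.4 CPM in input (0.73 ± 0.16, adjusted p = 0.00435). Kcnj8, the pore of vascular ATP-sensitive channels, was below 1 CPM in every library and did not pass. The strong rectifiers Kcnj2, Kcnj4 and Kcnj12, and Kcnj14, ranged from -0.75 to 0.29 and did not pass. Kcnj4, at -0.75, stood at -1.54 with IP replicate 2 left out and at -0.20 with input replicate 3 left out.

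Two-pore channels carry background current, and 3 of 9 tested were higher in IP and 2 were lower (median log2 fold change 0.42), or 1 lower without input replicate 1 or 2. Kcnk3 and Kcnk9, genes of acid-sensitive TASK channels, rose. Kcnk3 had 53.6, 58.0 and 42.8 CPM in IP, against 21.7, 19.6 and 13.6 CPM in input (1.49 ± 0.20, adjusted p = 0.000451, 0.0299 for a change past 2-fold). Kcnk9, which pairs with it, had 35.7, 28.9 and 23.6 CPM in IP, against 14.7, 15.7 and 8.04 CPM in input (1.20 ± 0.26, adjusted p = 0.00519). The weakly rectifying Kcnk1 had 140, 111 and 108 CPM in IP, against 76.9, 73.0 and 57.3 CPM in input (0.79 ± 0.15, adjusted p = 0.0028). No IP library of these 3 genes overlapped the input libraries, and input replicate 3 was the lowest library of each. Kcnk13, a channel of microglia, had 1.84, 1 and 0.326 CPM in IP, against 6.46, 5.34 and 4.15 CPM in input (-2.33 ± 0.53, adjusted p = 0.00619; -2.99 without IP replicate 1), and 6 microglial markers summed to 3.85 to 6.40 CPM in IP and 44.2 to 65.5 CPM in input. The part of microglial RNA was not tested. Kcnk6 had 0.263, 0.586 and 0.933 CPM in IP, against 1.37, 2.04 and 1.58 CPM in input (-1.48 ± 0.51, adjusted p = 0.0375), a call lost when any library but IP replicate 3 was left out, with adjusted p-values of 0.0804 and 0.0749 without IP replicates 1 and 2, and 0.065, 0.123 and 0.0631 without input replicates 1, 2 and 3. The mechanosensitive Kcnk2, with 52.4, 37.4 and 39.5 CPM in IP and 33.0, 33.3 and 50.5 CPM in input, did not pass, nor did Kcnk4, Kcnk10 and Kcnk12, at 0.42, 0.32 and 0.66.

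Calcium-activated channels moved gene by gene, with 1 of 7 tested higher in IP, 4 lower and 2 not passing (median log2 fold change -0.44). Among the small-conductance SK genes, whose channels give an afterhyperpolarization, Kcnn1 was higher and Kcnn3 lower. Kcnn1 had 12.3, 10.5 and 13.5 CPM in IP, against 6.73, 6.67 and 5.16 CPM in input (0.97 ± 0.19, adjusted p = 0.00274). Kcnn3, the SK gene of dopamine neurons, had 16.2, 13.5 and 10.2 CPM in IP, against 42, 32.5 and 49.99 CPM in input (-1.64 ± 0.22, adjusted p = 0.000453). Neither pair of groups overlapped. Among input libraries Kcnn3 was highest in replicate 3, where the dopamine markers were lowest, and the part of dopamine neuron RNA in its values was not tested. Kcnn2 had 19.7, 16.9 and 18.2 CPM in IP, against 24.8, 28.5 and 21.3 CPM in input (-0.44 ± 0.15, adjusted p = 0.0333), and the call was lost when any library but input replicate 3 was left out, with adjusted p-values of 0.0522, 0.0868 and 0.0658 without IP replicates 1, 2 and 3, and 0.0843 and 0.146 without input replicates 1 and 2. Per length Kcnn1 made up 41.6% ± 4.17 of the SK sum in IP and 15.6% ± 2.43 in input, Kcnn3 19.99% ± 4.08 in IP and 45.8% ± 8.75 in input, and Kcnn2 38.4% ± 0.143 and 38.6% ± 6.55. The plot of family make-up shows these shares in every library.

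Kcnma1, the pore of the large-conductance BK channel, had 132, 146 and 83.8 CPM in IP and 134, 136 and 128 CPM in input and did not pass (-0.14, adjusted p = 0.555). Of its 3 tested beta subunits Kcnmb1 and Kcnmb4 were lower in IP. Kcnmb4, the neuronal beta subunit, had 1.74, 1.9 and 1 CPM in IP, against 3.87, 5.18 and 6.32 CPM in input (-1.72 ± 0.34, adjusted p = 0.00282), with 31.5% of its merged exons overlapping another gene. Kcnmb1, the beta subunit of smooth muscle, had 8, 1 and 2 counts in IP, against 78, 56 and 85 counts in input (-4.28 ± 0.70, adjusted p = 0.00129; -5.49 without IP replicate 1). The gene (chr11:33963013-33973641, plus strand) lies within the span of Kcnip1 (chr11:33629339-33993152, minus strand), with no shared exon bases. Mural markers summed to 3.85 to 4.54 CPM in IP and 27.4 to 48.1 CPM in input, and the part of mural RNA was not tested. Kcnmb2 stood at 0.16 (adjusted p = 0.714). Of the sodium-activated genes Kcnt2 was lower in IP, with 8.74, 9.98 and 4.10 CPM in IP, against 20.3, 25.7 and 24.5 CPM in input (-1.63 ± 0.30, adjusted p = 0.00219). Its relative Kcnt1 had 40.2, 33.0 and 27.5 CPM in IP and 40.1, 43.0 and 41.2 CPM in input (-0.30, adjusted p = 0.117) and was called lower without IP replicate 1 (-0.44, adjusted p = 0.0374), with upper-quartile scaling (-0.46, adjusted p = 0.0285) and with library totals alone (-0.44, adjusted p = 0.0375). Kcnu1 did not pass, at 0.15 (adjusted p = 0.673).

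**Figure D4:**
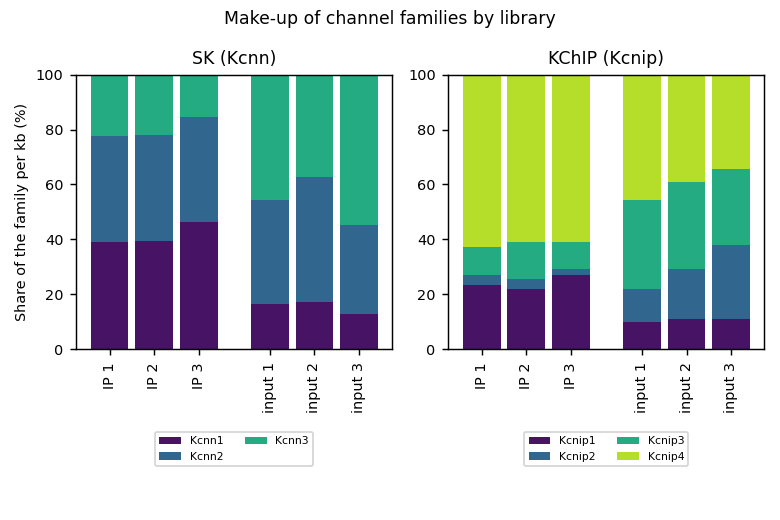
Share of each member in the summed level per length (CPM per kb) of its own family, in percent, for the SK and KChIP families in each IP library (left) and input library (right). Kcnn1 takes 39.1% to 46.4% of the SK sum in IP and 12.8% to 17.3% in input, and Kcnip4 60.8% to 62.6% of the KChIP sum in IP and 34.3% to 45.8% in input.

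Among auxiliary subunits 3 of 8 tested were higher in IP and 2 were lower (median log2 fold change 0.43), or 4 lower without input replicate 2. All 4 KChIP genes, calcium sensors that raise the surface level of Kv4 channels, passed, in opposite directions. Kcnip1 had 120, 121 and 124 CPM in IP, against 51.6, 56.6 and 63.6 CPM in input, without overlap (1.09 ± 0.11, adjusted p = 0.000144). Kcnip4 had 188, 197 and 164 CPM in IP, against 139, 116 and 116 CPM in input (0.56 ± 0.12, adjusted p = 0.00483). Kcnip2 had 10.5, 11.8 and 6.27 CPM in IP, against 34.9, 51.8 and 87.7 CPM in input (-2.61 ± 0.36, adjusted p = 0.00056), and Kcnip3 30.6, 41.8 and 25.8 CPM in IP, against 96.1, 91.2 and 92.3 CPM in input (-1.51 ± 0.17, adjusted p = 0.000242). No pair of groups overlapped. Kcnip2 was highest in input replicate 3, the library with the most striatal and choroid plexus marker RNA. Without input replicate 3 and IP replicate 2 its log2 fold change was -2.42. The part of RNA from either source in the Kcnip2 values was not tested. Per length Kcnip1 and Kcnip4 made up 24.1% ± 2.58 and 61.5% ± 0.976 of the KChIP sum in IP, against 10.7% ± 0.659 and 39.7% ± 5.76 in input.

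Of the 3 beta subunit genes of Kv1 channels, Kcnab2 was higher in IP and the others did not pass. Kcnab2 had 293, 240 and 343 CPM in IP, against 171, 187 and 128 CPM in input (0.85 ± 0.18, adjusted p = 0.0041). Kcnab3 had 156, 132 and 147 CPM in IP and 112, 90.1 and 37.4 CPM in input, without overlap, and did not pass (0.86 ± 0.33, adjusted p = 0.0541), although it passed without input replicate 3 (0.50, adjusted p = 0.0188) or input replicate 1 (1.19, adjusted p = 0.0230). Kcnab1 had 43.2, 39.0 and 54.1 CPM in IP and 55.8, 50.1 and 97.8 CPM in input (-0.58, adjusted p = 0.0817), and was called lower with the replicate number as a block in the fit (adjusted p = 0.0110) and without input replicate 2 (-0.75, adjusted p = 0.0419). Kcne4, the single Kcne gene tested, stood at 0.30 (adjusted p = 0.701), and at -0.18 without IP replicate 2.

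Genes for proteins that cluster or modulate these channels, listed by role, were read from the same fit. Of 25 listed, 23 were tested, 8 were higher in IP, 5 were lower and 10 did not pass, and the shares of 34.8% higher and 21.7% lower stand beside 26.0% and 27.9% of all genes tested. The Kv2 clustering genes Amigo1, Vapa and Vapb were all higher, at 0.72, 0.49 and 1.07, where Kcnb2 did not pass. Ncs1, a calcium sensor of Kv4 channels, had 580, 519 and 678 CPM in IP, against 295, 284 and 263 CPM in input (1.08), and Dpp6, which speeds Kv4 gating, 292, 243 and 161 CPM in IP and 163, 157 and 98.9 CPM in input (0.73), with overlap. Lrrc38, a BK gamma subunit, was higher at 1.32, and the scaffold Dlg4 and the GABA-B receptor gene Gabbr1 at 0.48 and 0.56. Abcc9, the sulfonylurea receptor of vascular ATP-sensitive channels, had 0.717, 1.44 and 0.466 CPM in IP, against 3.97, 4.90 and 4.29 CPM in input (-2.33), whereas Abcc8, the neuronal receptor that joins Kcnj11, did not pass (0.33, adjusted p = 0.496). Cntn2, which holds Kv1 channels beside the node of Ranvier, Dlg1, the channel regulator Kcnrg and the GABA-B auxiliary gene Kctd12 were lower, at -1.08, -0.93, -1.14 and -1.19. The calls of Dpp6 and Gabbr1 were lost without IP replicate 1 (adjusted p = 0.117 and 0.104), IP replicate 2 (0.127 and 0.133), input replicate 2 (0.0532 and 0.0693) or input replicate 3 (0.115 and 0.120), and that of Kcnrg without any library but IP replicate 1 (0.0562 to 0.132). Without both IP replicate 2 and input replicate 3, those 3 calls and the calls of Amigo1 (0.52, adjusted p = 0.0631) and Lrrc38 (0.98, adjusted p = 0.0709) were lost. With the replicate block Dpp10 and Gabbr2 were also called higher (adjusted p = 0.0230 and 0.00219) and Lgi1 and Dlg2 lower (0.0172 and 0.0225).

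**Figure D5:**
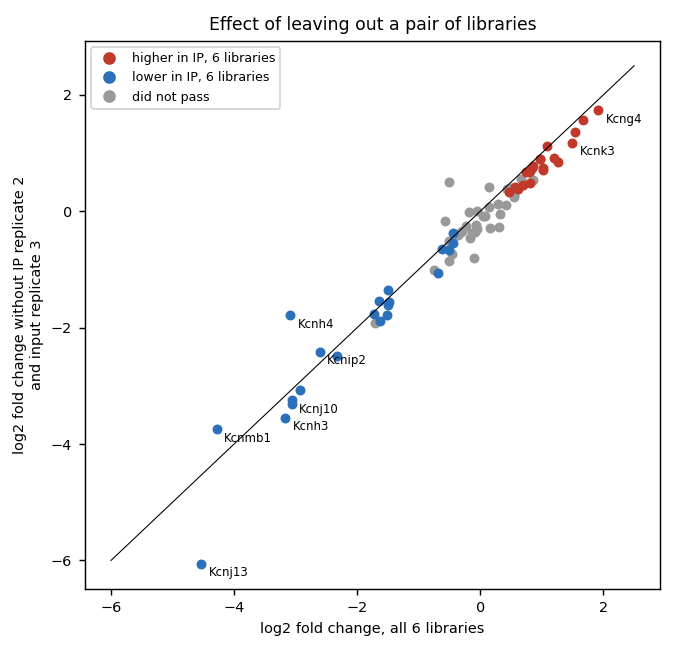
Log2 fold change of IP over input for the 76 tested potassium channel genes from all 6 libraries (horizontal axis) and without IP replicate 2 and input replicate 3 (vertical axis). Of the 76 genes 70 keep their sign, including all 42 called, and Kcnj13 lies furthest below the diagonal at -6.05 against -4.53. For called genes other than Kcnh5 the IP and input libraries do not overlap, so leaving libraries out could hardly change the sign.

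Leaving out the 2 libraries that stood apart gave 17 genes higher and 19 lower. IP replicate 2 lay more than 1.5-fold above the mean of the other IP libraries for 13 of the 76 genes and as far below it for 4. Input replicate 3 lay more than 1.5-fold above the mean of the other input libraries for 10 genes and as far below it for 19. Kcna2, Kcna3, Kcnd2, Kcnh4, Kcnip4, Kcnj9 and Kcnk6 were among the genes that lost their calls in that fit, and Kcnab3 (0.54, adjusted p = 0.0277) and Kcnq5 (adjusted p = 0.0492) gained one. The 3 genes that rose past 2-fold kept a call, with log2 fold changes of 1.73 for Kcng4, 1.57 for Kcns3 and 1.18 for Kcnk3.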

How the data were processed

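Each library has 1 deposited table of raw counts, the number of reads per gene symbol with no scaling. Alignment used STAR 2.0.0e and counting used HTSeq, on mm10, per the submitters' processing notes. Annotation, strand setting and counting mode were not given in the sources used here, so overlapping or antisense genes cannot be told apart by their reads. Of 76 tested genes 25 share exon bases with another gene and 4 share over 20% (Kcna6, Kcnj3, Kcnj13, Kcnmb4). Summary lines stayed out of totals and tests. Ambiguous reads made up 1.59% to 1.68% in IP and 8.03% to 10.9% in input, and alignments that were not unique 43.8% to 44.5% in IP and 31.8% to 33.0% in input.

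The low-count filter was filterByExpr (minimum count 10, minimum total 15). After TMM scaling, edgeR 4.0.16 (R 4.3.3) gave a robust quasi-likelihood fit with group as the only term and a two-sided F test, with Benjamini-Hochberg adjustment over all 17197 genes and a threshold of 0.05. Changes past 2-fold were tested with glmTreat. The SE is the log2 fold change divided by the square root of F. CPM uses TMM-scaled totals, and CPM per kb the merged exon length in GENCODE M21 (GRCm38), where 92 of 92 genes matched by symbol. RefSeq promoter windows were found for 67 genes, with windows on chromosome 18 not used. The tests were checked on simulated data.

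Libraries that share a replicate number also share a sequencing lane in their labels, so the number pairs them by lane. Within these pairs the deviations from group means had correlations of 0.155, 0.0744 and 0.0506 (Pearson, across genes). Between IP and input libraries of unlike numbers the correlations ran from -0.1075 to 0.0207. Replicates differed by more than sampling noise, with a chi-square per degree of freedom of 25.6 to 79.3. The alternatives were scaling by RLE, upper quartile or library totals alone, no low-count filter, a minimum count of 50, the replicate block, DESeq2 1.42.0, limma-voom (limma 3.58.1), each library left out, and IP replicate 2 and input replicate 3 left out together.

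The genes, lists, tests and alternatives were chosen with earlier results of these data known. Named were Lhx5 and Rpl10a (log2 fold change -0.15, adjusted p = 0.548) and, of each subfamily, up to 3 called genes with the largest rise, up to 3 with the largest fall and the most abundant tested gene. This rule gave 45 potassium channel genes, and the others given with values were chosen after their values were seen. Some potassium channel genes entered the counts, sums and tests but are not reported here by name.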

Additional observations from a re-analysis of the deposited data

How the results depend on the processing

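Over all 15 alternatives the 21 higher and 21 lower potassium channel genes stayed within 1.5 times those counts (21 and 23 with the replicate block, 15 to 22 and 16 to 22 with 1 library left out, 17 and 19 without IP replicate 2 and input replicate 3). The block added 2 calls among potassium channel genes, Kcnab1 among them, and those of 4 partner genes, and changed no other call among them. Past 2-fold, 3 genes were higher and 1 with upper-quartile scaling, 1 with library totals alone and 1 to 3 with a library left out. The count of higher voltage-gated genes, 12, ran from 7 to 12 with a library left out. Higher inward rectifiers, 2, were 1 to 3 with a library left out and 1 without IP replicate 2 and input replicate 3. Lower two-pore genes, 2, were 4 with no low-count filter and 1 to 3 with a library left out. Lower sodium-activated genes, 1, were 2 with upper-quartile scaling, 2 with library totals alone and 1 to 2 with a library left out. Lower auxiliary genes, 2, were 2 to 4. Of 704 values for named genes under an alternative 648 kept direction and side of the threshold, 44 lost the call, 5 gained one and 7 changed sign. Kcnd3 (0.07) was -0.083 with upper-quartile scaling, -0.067 with library totals alone, -0.10 to 0.17 with a library left out (-0.037 without IP replicate 1, -0.10 without input replicate 3) and -0.084 without both libraries that stood apart. Kcnma1 (-0.14) was -0.37 without both libraries that stood apart and -0.33 to 0.077 with a library left out (0.077 without IP replicate 3), and Kcnu1 (0.15) was -0.0055 with upper-quartile scaling. Over all 76 tested genes 16 changed sign under at least 1 alternative, 0 of them called, among them Kcna5 (-0.51, and 0.56 without input replicate 3) and Kcne4 (0.30, and -0.026 with the replicate block, -0.14 with limma-voom and -0.27 without both libraries that stood apart). The cause was not tested. Leaving libraries out could hardly change the sign of a called gene, since only for Kcnh5 did the groups overlap. With upper-quartile scaling Kcnab1 and Kcnt1 were also called lower. DESeq2 also called Kcnab1 lower and Kcnab3 higher. The median of all genes, -0.01, was -0.17 with upper-quartile scaling, -0.15 with library totals alone and -0.22 with no low-count filter.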
